A study of Mus musculus with 15 samples.

Results

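The comparison described here is that of mouse cardiomyocytes made to overexpress DDIT3 with cardiomyocytes given GFP alone: 5 libraries of the first kind and 5 of the second, 10 of the 15 libraries in the series, chosen by their group label and replicate number. Rosa-Cas9GFP mice, in which Cas9 and GFP are inserted at Rosa, were injected on postnatal day 1 with an adeno-associated virus, AAV-DDIT3-2A-GFP or AAV-GFP. Hearts were perfused by the Langendorff method at 4 weeks, cardiomyocytes were collected by FACS, and polyA RNA was sequenced from full-length cDNA. All 10 libraries therefore came from Cas9 and GFP animals that had received a virus, and none came from an uninjected heart. The other 5 libraries of the series, from hearts given AAV-ATF4-2A-GFP, entered the model only to share its estimate of spread and to give side values. The labels name neither the promoter that drives the virus's insert nor the animal behind each library, so that the p-values here rest on the spread among samples that may be technical repeats. Of 23337 genes in the count table, 11814 had enough reads to be tested.

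DDIT3, better known as CHOP, is a bZIP transcription factor that is nearly silent in unstressed cells and accumulates when unfolded proteins in the endoplasmic reticulum (ER) activate the kinase PERK, which phosphorylates eIF2alpha and lets ATF4 be translated. It binds DNA as a dimer with members of the C/EBP family or with ATF4, and can act as an activator or, by holding C/EBP proteins, as an inhibitor. In long ER stress it is known for genes that favour cell death and for Ppp1r15a (GADD34), which reverses eIF2alpha phosphorylation.

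Total counts were 7268663 to 8317249 in the DDIT3 libraries and 6680988 to 7963333 in the GFP libraries. By Xist and Y-linked transcripts, DDIT3 replicate 2 and GFP replicates 4 and 5 were female and the other 7 libraries male. GFP replicate 5 is labelled SMART-Seq3 and the other 9 SMART-Seq2. Cardiomyocyte markers were abundant in all 10 libraries: the 12 listed summed to 124440 to 135750 CPM (counts scaled to the size of each library) in DDIT3 and 119740 to 151830 in GFP. On the 2 leading principal components, which held 23.8% and 21.9% of the variance of the 2000 most variable genes, the groups overlapped on each component taken alone. They did not overlap in component 2 minus component 1, which was 0.422 to 35.5 in DDIT3 and -31.2 to -9.78 in GFP. A direction that parts so few points can often be picked from a plot, so that this is a description only. The lines that join libraries of the same number ran in a like direction in the plot of components, and each DDIT3 library lay above and to the left of the GFP library of its number. Deviations from the group means were correlated between same-numbered libraries (0.205 to 0.511) and lay at -0.362 to 0.157 between differently numbered ones. Each result is therefore given from the fit on group alone, and the fit with the replicate number as a block is given where it changes a call or a count.

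**Figure D1:**
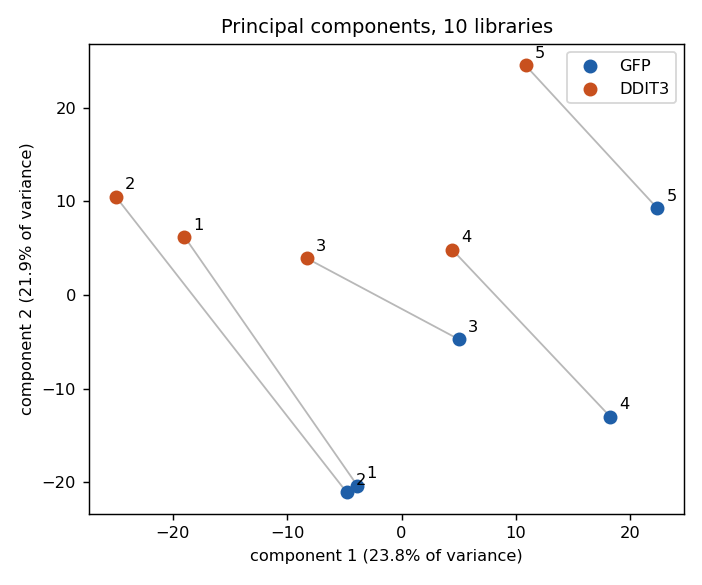
Principal components 1 (x) and 2 (y) of the 10 libraries, blue for GFP and orange for DDIT3, with the replicate number beside each point and grey lines between same-numbered libraries. DDIT3 libraries spanned 3.91 to 24.5 on component 2 and GFP libraries -21.1 to 9.25, so that the groups overlapped on it, while every line runs up and to the left from GFP to DDIT3.

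Few genes changed. At an adjusted p below 0.05 in edgeR's quasi-likelihood test, 102 of 11814 genes (0.863%) were called, 62 higher in DDIT3 (0.525%) and 40 lower (0.339%), while 1147 had an unadjusted p below 0.05. With the replicate block the count was 322 (2.73%), 183 higher (1.55%) and 139 lower (1.18%), and it held all 102. On the 10 libraries alone with the block it was 469, 206 higher and 263 lower, so that the balance of the directions turned. At least 2-fold changes were found in 52 of the 102, 35 higher and 17 lower. The 5 DDIT3 and 5 GFP values did not overlap for 338 genes (2.86%), and for 92 of the 102. Counted over same-numbered libraries, 61 of the 62 higher genes were higher in 5 of 5 pairs, and 40 of 40 lower genes were lower in 5 of 5. These genes were called from the same libraries, so that this agreement is no separate support for the calls or the pairing. Across all tested genes the median log2 fold change was 0.0035, and 5% of genes lay below -0.51 and 5% above 0.45.

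**Figure D2:**
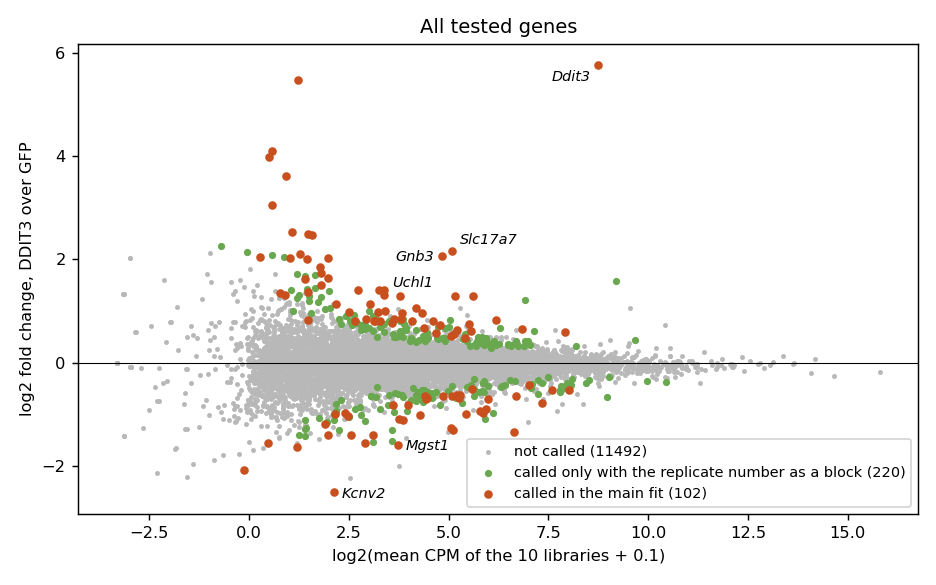
Each point is a tested gene, with the log2 of its mean CPM over the 10 libraries plus 0.1 on the x axis and its log2 fold change, DDIT3 over GFP, on the y axis. The 102 genes called in the fit on group alone are orange, the 220 called only with the replicate block green and the rest grey, and most called genes that rose had low levels.

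The genes that rose were mostly of low abundance. Their median level in GFP was 6.10 CPM, against 26.9 CPM for those that fell and 22.7 CPM for all tested genes. A gene low in GFP passes the count filter mainly through higher counts in another group, so that these levels are a description only. At the abundant end, 1690 genes reached 100 CPM in GFP, of which 7 were called, 1 of them higher. With the block 37 were called, 9 higher and 28 lower. Median annotated length, from the count table, was 2380.5 bases for the genes that rose, 3448.5 for those that fell and 2946 for all. The part of level or length in these calls was not tested.

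Ddit3 itself (chr10:127290793-127296291, GRCm38) read 1072, 676, 971, 838 and 664 CPM in DDIT3 replicates 1 to 5 and 16.6, 15.8, 15.8, 16.5 and 13.4 CPM in GFP replicates 1 to 5. The groups lay far apart, with a log2 fold change of 5.75 ± 0.20 (SE, adjusted p = 2.30e-12). Reads from the vector's insert and from the animal's own gene are counted together. Atf4, which acts above Ddit3 in the stress response, was 43.6 to 101 CPM in DDIT3 and 51.3 to 82.1 in GFP (log2 fold change -0.10 ± 0.20, adjusted p = 0.946). The GFP level of Ddit3 was not 0, and in the ATF4 libraries it was 29.5 ± 7.62 CPM (SD, n = 5). Within 100000 bases of Ddit3 lie 8 other tested genes, among them Mars, which encodes methionyl-tRNA synthetase, and Mbd6, both of which overlap it. Their log2 fold changes were -0.11 to 0.40, with no adjusted p below 0.784.

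Genes best known from neurons and synapses were among the largest rises. Slc17a7 (chr7:45163921-45176139) encodes VGLUT1, which loads glutamate into synaptic vesicles, and read 60.0, 41.8, 59.0, 66.1 and 52.0 CPM in DDIT3 against 15.02, 7.56, 13.6, 13.7 and 12.01 in GFP. No library overlapped between groups, which was 1 of the conditions for naming the genes of largest change and is no finding in them (log2 fold change 2.17 ± 0.23, adjusted p = 7.50e-05). In the same way, with the log2 fold change and its SE in brackets here and for the genes that follow, Syt3, a calcium sensor of the synaptotagmin family, read 14.4, 13.6, 15.9, 13.4 and 11.3 CPM against 4.02, 4.82, 5.51, 5.14 and 6.32 (1.41 ± 0.20, adjusted p = 0.00115). Every DDIT3 value of Syt3 was above every GFP value, by a wide margin. Aplp1, a neuronal relative of the amyloid precursor protein, read 6.54, 4.85, 6.15, 5.60 and 3.23 CPM against 1.21, 2.09, 1.38, 1.84 and 1.26 (1.75 ± 0.28, adjusted p = 0.00308). Uchl1, a ubiquitin hydrolase abundant in neurons, read 16.9, 16.5, 13.8, 13.8 and 14.3 CPM against 6.44, 5.08, 5.21, 6.98 and 4.43 (1.41 ± 0.13, adjusted p = 2.62e-05). For both genes the groups again did not overlap. The list of neuronal and synaptic genes, chosen with these 4 rises already known, held 70 genes in the table, of which 26 were tested. It had 4 higher and 0 lower, and its median log2 fold change was 0.18. The other 44, among them Snap25, Syp, Gad1 and Nefl, were too low to test.

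**Figure D3:**
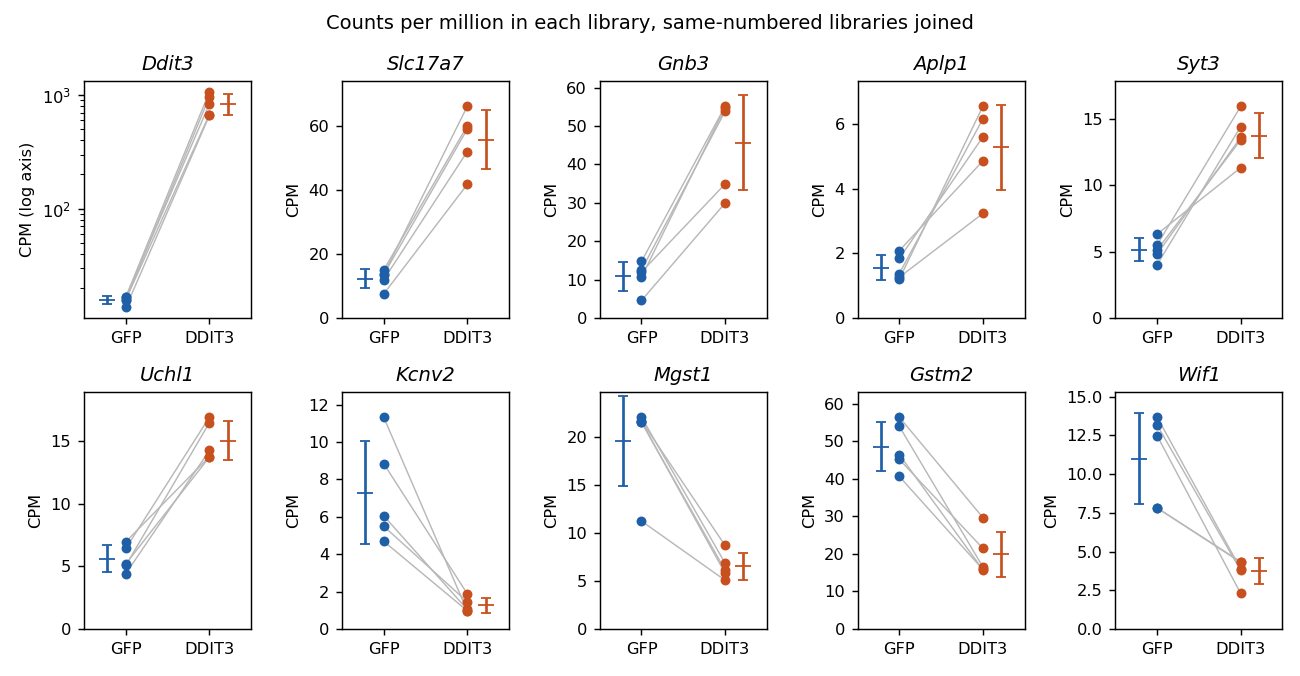
CPM (y) of 10 genes in GFP (blue) and DDIT3 (orange) libraries, with grey lines joining libraries of the same replicate number and bars for the mean and SD of 5 libraries; the axis of Ddit3 is logarithmic and the others start at 0. In each of the 10 genes every DDIT3 point lies on 1 side of every GFP point, a condition by which the genes other than Ddit3 were chosen.

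A pair of G protein subunits and their regulators were also higher in DDIT3. Gnb3 (chr6:124834240-124840275), a beta subunit of heterotrimeric G proteins, read 55.1, 54.8, 53.8, 29.9 and 34.9 CPM in DDIT3 and 14.8, 10.7, 12.6, 4.61 and 12.01 in GFP. The lowest DDIT3 library, replicate 4, was still above the highest GFP library (2.07 ± 0.27, adjusted p = 8.40e-04). Gng7, a gamma subunit, read 7.02, 2.91, 6.03, 4.81 and 3.50 CPM against 1.21, 0.782, 0.460, 0.790 and 1.11 (2.46 ± 0.35, adjusted p = 0.00122). Gnao1, which encodes the alpha subunit Go, was called with the block only (adjusted p = 0.198 without it and 0.0169 with it). Of 22 tested G protein subunits 2 rose and 0 fell, or 3 and 0 with the block, and the median log2 fold change was -0.01. Arrb1, or beta-arrestin 1, which uncouples activated receptors, read 33.0, 25.7, 22.9, 22.5 and 17.8 CPM against 12.3, 14.5, 10.9, 10.1 and 10.7 (1.06 ± 0.17, adjusted p = 0.00308). The receptor kinase Grk5 was 7.60 to 10.7 CPM in DDIT3 and 4.04 to 7.27 in GFP and was called with the block only (adjusted p = 0.0722 and 0.0254). They were the only 2 of 34 adrenergic and muscarinic genes called in either fit, both higher. Camk2b, a calmodulin-dependent kinase subunit, rose from 15.01 to 17.5 CPM in GFP to 21.7 to 30.4 in DDIT3 (0.67 ± 0.14, adjusted p = 0.0341), the only call among 30 genes of excitation-contraction coupling. Leaving out 1 library at a time ended the call of Camk2b for 9 of the 15 libraries (highest adjusted p 0.133).

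Adap1, a regulator of Arf GTPases, read 5.93, 5.96, 7.12, 6.12 and 5.79 CPM against 1.34, 1.30, 1.84, 0.790 and 2.37 (2.03 ± 0.30, adjusted p = 0.00223). Pcbd1, which recycles the cofactor tetrahydrobiopterin and binds HNF1 proteins, read 5.57, 6.80, 4.95, 4.55 and 4.04 CPM against 0.805, 1.82, 1.38, 1.05 and 2.054 (1.86 ± 0.31, adjusted p = 0.00484). Neither gene overlapped between the groups. Ankrd35, Zfp385a, Slc22a17 and Pdzd3 rose by 1.64, 1.501, 1.40 and 1.31 on the log2 scale, with adjusted p-values of 0.00900, 0.00491, 0.0107 and 0.0119. Slc22a17 is a cell-surface receptor for lipocalin-2 and Pdzd3 a PDZ scaffold. Pdzd3 was lower in the ATF4 libraries than in GFP (log2 fold change -1.51, adjusted p = 5.25e-04), and DDIT3 exceeded ATF4 directly by 2.83 (adjusted p = 3.06e-07). The direct contrast of DDIT3 with ATF4 called 3997 genes in all (33.8%). Of the 62 genes that rose, 26 were also called higher in ATF4 than in GFP, and 7 lower. The 26 held Uchl1, Adap1 and Slc17a7, with log2 fold changes of 4.40, 1.44 and 0.96 in ATF4. In the direct contrast 43 of the 62 lay above ATF4 and 8, with Uchl1 among them, below it. The 62 were chosen by high values in these DDIT3 libraries and low values in these GFP libraries. Both comparisons reuse such libraries, which tilts the counts upward, so that they are a description only and no measure of what the 2 vectors share.

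Single genes of metabolism also rose. Pdk3, a kinase that switches off pyruvate dehydrogenase, read 23.7, 18.7, 17.7, 19.8 and 17.1 CPM against 7.24, 7.82, 6.59, 9.22 and 8.69 (1.29 ± 0.17, adjusted p = 6.97e-04). Stbd1, which binds glycogen and ties it to autophagy, read 83.4, 45.4, 73.0, 52.8 and 92.6 CPM against 18.1, 24.0, 39.2, 23.0 and 37.3 (1.30 ± 0.22, adjusted p = 0.00567). In both genes every DDIT3 library was above every GFP library. Itgb1bp3, now named Nmrk2, encodes a nicotinamide riboside kinase of muscle and rose by 1.29 ± 0.27 (adjusted p = 0.0300). Cidea, a lipid droplet protein, read 32.6 to 35.4 CPM in GFP and 49.3 to 70.2 CPM in DDIT3 (0.75 ± 0.10, adjusted p = 0.00112), the only call among 29 lipid droplet and lipid synthesis genes. Ucp2, a mitochondrial carrier, was the only call among 41 genes of fatty acid uptake and oxidation (0.59 ± 0.13, adjusted p = 0.0445), and its groups overlapped in 1 pair, since GFP replicate 4 (238 CPM) exceeded DDIT3 replicate 4 (233 CPM). Leaving out 1 library ended the call of Itgb1bp3 for 7 of 15 libraries and that of Ucp2 for 9 (highest adjusted p 0.105 and 0.154).

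Several genes almost silent in GFP had clear counts in DDIT3. They are named here after their values were seen, because their levels fall under the 5 CPM asked of the genes above. Lhfpl4, a partner of GABA-A receptors at inhibitory synapses, had 172 counts over the 5 DDIT3 libraries and 3 over the 5 GFP libraries, all 3 in GFP replicate 4. The ratio per effective library size was 52.5, with an exact binomial 95% interval of 17.7 to 257 that covers counting error only. Mapk8ip2, a scaffold of JNK signalling in neurons, had 104 counts against 5 (ratio 19.04, interval 7.90 to 59.9). Padi2, which turns arginine into citrulline in proteins, had 96 against 5 (17.6, 7.28 to 55.4), and Tmem63c, a membrane channel protein, 127 against 9 (12.9, 6.59 to 28.9). All 4 were called, with adjusted p-values of 2.46e-04, 0.00115, 0.00308 and 0.00509. Kcnj14, an inwardly rectifying potassium channel subunit named from its list, read 4.600, 3.88, 2.29, 3.77 and 2.69 CPM against 0.536, 0.652, 0.306, 1.05 and 0.316 (2.52 ± 0.43, adjusted p = 0.00530). Ric3, a chaperone of nicotinic receptors, and Kif1a, a motor that carries synaptic vesicle precursors, rose by 2.49 and 2.10 on the log2 scale (adjusted p = 0.00223 and 0.0344). Kif1a lost its call without any 1 of 7 libraries (highest adjusted p 0.135). The highest single value among these genes was 7.02 CPM, of Kif1a in DDIT3 replicate 1. Ric3 shares part of its span with Tub, and without strand in the kit its reads cannot be wholly told from those of that neighbour.

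A pair of glutathione transferases, which detoxify reactive compounds, fell. Gstm2 (chr3:107981702-107986420), a cytosolic glutathione transferase, read 15.9, 29.7, 21.5, 16.5 and 15.8 CPM in DDIT3 and 40.6, 56.4, 45.2, 54.0 and 46.5 in GFP. Its lowest GFP library was above its highest DDIT3 library (-1.29 ± 0.16, adjusted p = 6.24e-04). Mgst1 (chr6:138140527-138156755), the microsomal enzyme of the same reaction, read 5.08, 5.83, 6.15, 8.72 and 6.87 CPM against 11.3, 21.6, 21.6, 21.7 and 22.1 (-1.59 ± 0.21, adjusted p = 6.98e-04). GFP replicate 1 lay well below the other 4 GFP libraries and still above all DDIT3 libraries. A list of 28 tested NRF2 and glutathione genes, which does not hold this pair, had 0 called, or 1 with the block, which was the NADPH-producing enzyme Me1 (-0.47 ± 0.14, adjusted p = 0.165 without the block and 0.00831 with it). Gstm genes are close copies of each other, so that reads may be shared among them; Gstm1, a neighbour in sequence, was -0.32 ± 0.13 (adjusted p = 0.428, and 0.0389 with the block on the 10 DDIT3 and GFP libraries alone). In the ATF4 libraries, compared with the same GFP libraries, Gstm2 was higher by 1.45 and Mgst1 by 0.52 (adjusted p = 1.52e-06 and 0.0453). The direct difference, DDIT3 minus ATF4, was -2.74 for Gstm2 and -2.11 for Mgst1 (adjusted p = 4.43e-10 and 3.54e-07). Ces1d, a carboxylesterase that cleaves stored lipid, read 60.5, 58.0, 39.7, 80.7 and 45.4 CPM against 113, 119, 146, 197 and 141 (-1.33 ± 0.24, adjusted p = 0.0107). Cp, the copper-dependent ferroxidase ceruloplasmin, read 43.2, 45.4, 38.7, 25.8 and 40.8 CPM against 76.3, 73.0, 70.5, 62.7 and 99.2 (-0.98 ± 0.19, adjusted p = 0.0154). Both fell without overlap between the groups.

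Several genes of secreted and surface proteins fell as well. Wif1, which binds and blocks Wnt ligands, read 3.87, 4.30, 4.34, 3.77 and 2.29 CPM in DDIT3 against 13.7, 7.82, 7.81, 13.2 and 12.5 in GFP (-1.56 ± 0.36, adjusted p = 0.0471). Wisp1, a matricellular protein first found as a Wnt target, read 1.82, 1.39, 1.93, 3.25 and 2.16 CPM against 4.56, 3.52, 6.74, 7.90 and 5.22 (-1.40 ± 0.25, adjusted p = 0.00875). All 5 pairs were lower in both. The Wnt receptor Fzd1, named after its value was seen, also fell (-0.81 ± 0.15, adjusted p = 0.0119). Slit2, a guidance ligand, and Prlr, the prolactin receptor, fell as well (-1.39 ± 0.30 and -1.39 ± 0.22, adjusted p = 0.0341 and 0.00339). Aqp4, a water channel, read 31.5, 29.4, 27.4, 18.999 and 38.1 CPM against 66.1, 51.0, 47.5, 54.9 and 67.6 (-0.98 ± 0.16, adjusted p = 0.00339). Pknox2, Fam81a, Pi16 and Kctd12 fell as well. Their log2 fold changes were -1.11, -1.09, -1.03 and -0.995, with adjusted p-values of 0.0119, 0.0363, 0.0265 and 0.0222. In ATF4 against the same GFP libraries, Ces1d, Aqp4, Pknox2 and Wif1 were lower still (-2.12, -1.82, -1.97 and -2.02), while Wisp1 and Cp were higher (2.12 and 1.38). Of the 40 genes that fell, 23 were also called lower in ATF4 than in GFP, and 8 higher. These counts reuse the GFP libraries by which the 40 were chosen, so that they are a description only. Several calls of these falls in DDIT3 had adjusted p-values not far below the threshold. Leaving out 1 library at a time ended that of Wif1 for 13 of 15, Slit2 for 9, Fam81a and Pi16 for 7 each and Kctd12 for 4, with adjusted p-values of at most 0.121. For Wif1 these included ATF4 libraries, which hold no DDIT3 or GFP value. Its log2 fold change stayed at -1.66 to -1.40 under all 25 alternatives.

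Several ion channel genes were lower in DDIT3, most of them called only with the replicate block. Kcnv2 (chr19:27322061-27337179), a silent subunit that modifies voltage-gated potassium channels, had the largest fall of all genes named: it read 1.45, 0.971, 0.965, 1.04 and 1.89 CPM in DDIT3 and 5.50, 4.69, 11.3, 6.06 and 8.85 in GFP. The highest DDIT3 value was well below the lowest GFP value (-2.51 ± 0.32, adjusted p = 6.24e-04). Scn4a, the skeletal muscle sodium channel, was lower in 5 of 5 pairs (-1.52 ± 0.37, adjusted p = 0.0687 without the block and 1.23e-04 with it), as was Clcn1, a chloride channel (-1.30 ± 0.39, adjusted p = 0.169 and 0.00776). Gja1, or connexin 43, the gap junction protein of ventricular myocytes, was 1102 to 1339 CPM in DDIT3 and 1304 to 1747 in GFP (-0.37 ± 0.10, adjusted p = 0.112 and 0.0428). Against these, Cacnb1, a calcium channel beta subunit, rose by 0.84 ± 0.18 (adjusted p = 0.0323). Cacnb1 overlaps Rpl19 in the annotation. The call of Cacnb1 was lost without any 1 of 7 libraries (highest adjusted p 0.118). Of 27 tested sodium, calcium and pacemaker channels and connexins, 2 rose and 0 fell in the fit on group alone, and 2 rose and 7 fell with the block. Their median log2 fold change was -0.34, and their summed level was 2464 to 2794 CPM in DDIT3 and 3066 to 3499 in GFP, without overlap. Gja1 alone, at the levels above, was a large part of these sums. Of 27 potassium channel genes, 1 rose and 1 fell, or 1 and 3 with the block, and the median was -0.15.

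Markers of the conduction system, the tissue that paces the heart and spreads the impulse, had log2 fold changes below 0 in all 10 tested genes of 16 listed, with a median of -0.76. Smoc2, a matricellular protein, was the only call without the block: it read 37.6, 20.7, 52.0, 40.6 and 36.5 CPM against 73.6, 68.5, 98.8, 52.3 and 67.3 (-0.94 ± 0.22, adjusted p = 0.0488). That call was lost without any 1 of 12 libraries (highest adjusted p 0.144). With the block 5 were called, all lower, among them Smoc2, the pacemaker channel Hcn4, the T-type calcium channel Cacna1g and the potassium channel subunit Kcne1. Hcn4 read 3.03, 3.33, 3.98, 7.81 and 4.58 CPM against 10.7, 6.26, 10.7, 8.43 and 9.96 (-1.02 ± 0.24, adjusted p = 0.0524 without the block and 0.0273 with it). Only DDIT3 replicate 4 reached the GFP range. Kcne1 read 55.2, 31.1, 51.3, 36.4 and 58.2 CPM against 117, 90.2, 97.0, 59.1 and 94.4, without overlap (adjusted p = 0.0523 and 0.0321). Cacna1g had an adjusted p of 0.185 without the block and 0.0223 with it. The lowest log2 fold change of the list was that of Cntn2, a cell adhesion protein of Purkinje fibres, which was 1.39 to 3.38 CPM in DDIT3 and 6.39 to 13.5 in GFP and had an adjusted p of 0.106 without the block and 0.119 with it (-2.23 ± 0.59). It was called with the block on the 10 DDIT3 and GFP libraries alone (-2.27 ± 0.19, adjusted p = 9.21e-05), and without the block on those 10, with DESeq2 and without ATF4 replicate 2 or 3. The list's summed level was 169 to 218 CPM in DDIT3 and 255 to 374 in GFP, of which Kcne1 and Smoc2 were a good part. In bulk RNA, fewer cells of a type and less RNA per cell cannot be told apart.

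**Figure D4:**
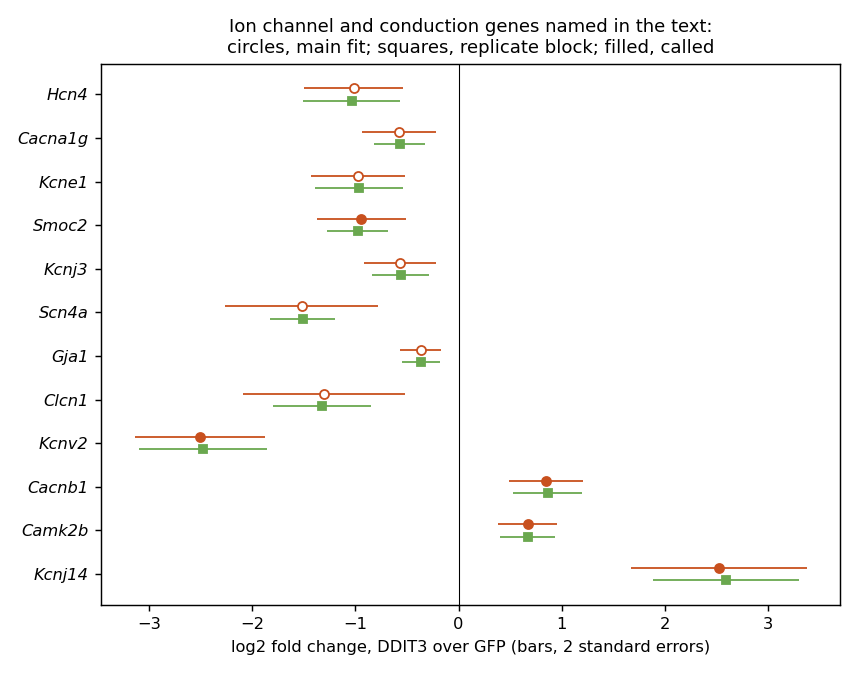
Log2 fold changes, DDIT3 over GFP (x), of 12 ion channel and conduction genes named in the text, as circles from the fit on group alone and squares from the fit with the replicate block; bars are 2 standard errors and filled symbols passed an adjusted p of 0.05. The estimates of both fits nearly coincide for each gene, and more squares than circles are filled.

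A list of 26 genes held reported targets of CHOP together with genes of cell death, and 20 of them were tested. In edgeR's fits 0 were called, beside 0.863% of all tested genes without the block and 2.73% with it, so that a count of 0 among 20 is near the background, with a median log2 fold change of -0.02. The GADD34 gene Ppp1r15a read 94.5, 99.5, 77.6, 47.5 and 36.8 CPM in DDIT3 and 92.0, 98.3, 36.0, 59.0 and 75.1 in GFP (-0.02 ± 0.29, adjusted p = 0.996). The groups overlapped fully. Trib3, a pseudokinase, read 2.18, 0.832, 1.69, 3.12 and 1.62 CPM against 2.41, 2.22, 1.38, 2.24 and 0.948 (0.02 ± 0.28, adjusted p = 0.996). Chac1, which degrades glutathione, was -0.20 ± 0.27 (adjusted p = 0.899). Ero1l, the ER oxidase Ero1-alpha, was -0.01 ± 0.17 and the death receptor Tnfrsf10b 0.15 ± 0.38 (adjusted p = 0.998 and 0.959). In the BCL2 family, 0 of 18 tested genes were called: the BH3-only genes Bbc3 and Bcl2l11 were 0.15 ± 0.39 and -0.16 ± 0.54, Bcl2 itself was -0.17 ± 0.23, and the median was 0.12. Of 37 bZIP and C/EBP genes 0 were called; Cebpb, a dimer partner of CHOP, was 56.7 to 136 CPM in DDIT3 and 44.4 to 93.5 in GFP (0.50 ± 0.28, adjusted p = 0.621). The 95% intervals of the log2 fold change were wide for some of these genes, -1.31 to 0.997 for Bcl2l11 and -0.64 to 0.94 for Tnfrsf10b, so that moderate changes were not detectable.

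The other branches of the ER and integrated stress response stayed near the GFP level, with a few single calls. Over all tested genes the shares called were 0.863% without the block and 2.73% with it. Of 38 tested genes of the ATF4 and amino acid response, 1 rose and 0 fell, or 3 and 0 with the block, and the median was 0.04. The call was Slc3a2, the heavy chain of several amino acid exchangers, which read 161, 77.7, 75.6, 91.7 and 61.2 CPM against 52.0, 52.4, 48.1, 54.5 and 56.4 (0.83 ± 0.19, adjusted p = 0.0432). DDIT3 replicate 1 lay far above the other DDIT3 libraries, and without it the log2 fold change was 0.53 ± 0.11 (adjusted p = 0.0421). Asparagine synthetase (Asns) and the mitochondrial folate enzyme Mthfd2 were called with the block only, by 0.48 ± 0.12 and 0.98 ± 0.22 (adjusted p = 0.0487 and 0.0240). In the ATF4 libraries the same 3 genes were 4.10, 7.70 and 9.01 above the same GFP libraries. Gdf15, a stress cytokine, did not overlap between groups at 1.57, 0.971, 1.33, 2.08 and 1.08 CPM against 0.671, 0.782, 0.153, 0.658 and 0.316, and was called in neither fit (adjusted p = 0.105 and 0.0575). Among 36 ER chaperone and degradation genes 0 were called without the block; with it Ddrgk1, an adaptor of protein UFMylation, was higher and Hsp90b1, the chaperone GRP94, lower (0.28 ± 0.13 and -0.33 ± 0.11, block adjusted p = 0.0487 and 0.0194). Hspa5, the chaperone BiP, was lower in 5 of 5 pairs and was not called (-0.27 ± 0.14, adjusted p = 0.574 and 0.0748 with the block), except with the block on the 10 libraries alone (adjusted p = 0.0408). Xbp1 and Herpud1 were -0.15 ± 0.14 and -0.03 ± 0.13. Of 20 cytosolic tRNA synthetases, only that for alanine, Aars, was called, with the block (0.34 ± 0.11, adjusted p = 0.234 and 0.0266). Of 19 one-carbon enzymes 1 rose and 0 fell, or 3 and 0 with the block. Shmt1 rose in both fits (0.81 ± 0.19, adjusted p = 0.0499), and the block added Mthfd2 and Sardh, which oxidises sarcosine (0.46 ± 0.17, adjusted p = 0.321 and 0.0495). Its mitochondrial counterpart Shmt2 was 0.06 ± 0.09. The calls of Slc3a2 and Shmt1 were lost without any 1 of 11 and 13 libraries (highest adjusted p 0.115 and 0.15). Among 27 amino acid transporters the block added Slc7a4 and Slc38a4 to Slc3a2, both higher (block adjusted p = 0.00963 and 0.0362).

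**Figure D5:**
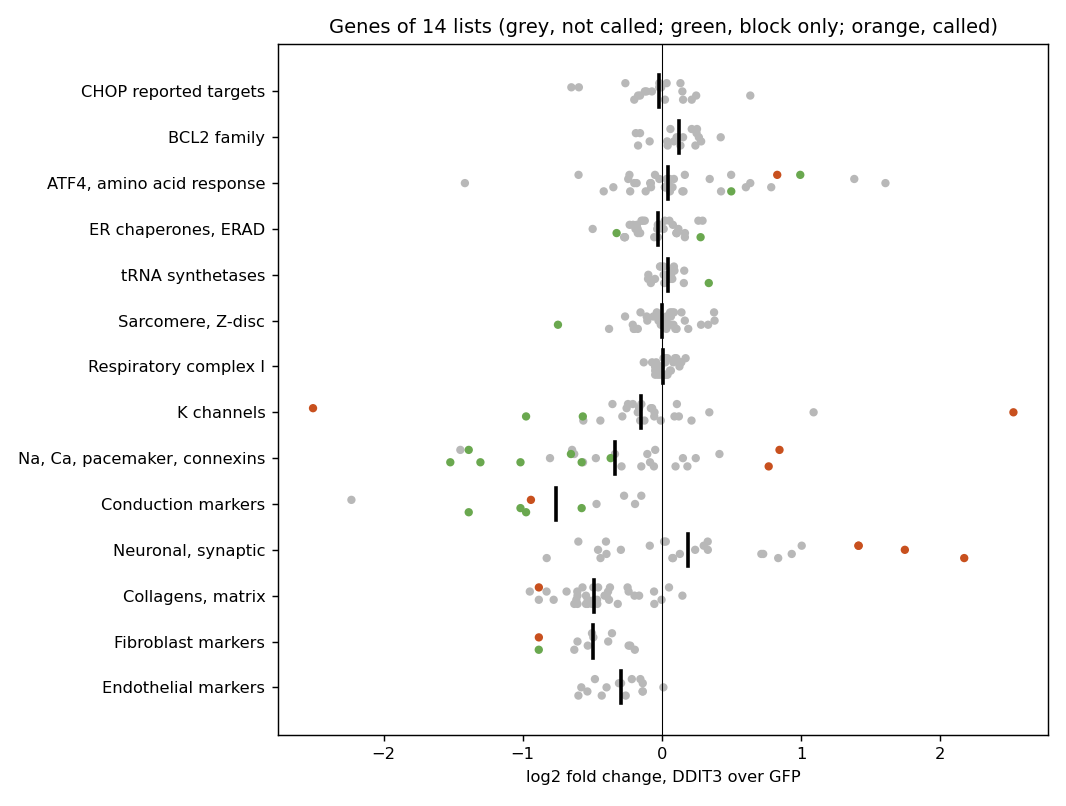
Log2 fold changes, DDIT3 over GFP (x), of the tested genes in 14 lists (rows), 1 point a gene and a black bar at each list's median; orange genes were called, green ones only with the replicate block, grey ones in neither fit, and Ddit3 is left out. The lists of CHOP targets with cell death genes, BCL2 genes and complex I centre near 0 and hold no called gene, whereas the matrix, fibroblast and conduction lists lie mainly below 0.

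Promoter sequences from RefSeq (GRCm38.p6, 250 bases before to 50 after the start site) are shown for 4 genes that hold letters of sites reported for CHOP or C/EBP dimers, to let them be seen in place. The letters searched on both strands were TGCAAT, the core of the site reported for CHOP with C/EBP, TTGCNNAA, of the C/EBP palindrome, and the composite C/EBP and ATF sites TGATGCAA and ATTGCATCA. The last holds both TGCAAT and TGATGCAA on its other strand. Matches stand in capitals, and each sequence runs 5′ to 3′ on the strand of its gene. Pcbd1 (chr10:61089081-61089380, plus strand) rose, and Aars (chr8:111033592-111033891, plus strand) was higher with the block only. The Aars window lies inside the annotated span of that gene (chr8:111027778-111055569) and not at its first base. Gstm2 (chr3:107986371-107986670, minus strand) and Mgst1 (chr6:138140277-138140576, plus strand) fell.
Pcbd1: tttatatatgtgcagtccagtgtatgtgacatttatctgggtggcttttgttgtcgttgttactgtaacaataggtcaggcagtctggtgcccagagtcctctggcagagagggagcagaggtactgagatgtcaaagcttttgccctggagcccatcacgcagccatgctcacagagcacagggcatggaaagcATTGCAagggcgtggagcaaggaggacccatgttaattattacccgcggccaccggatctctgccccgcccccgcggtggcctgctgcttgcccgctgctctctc
Aars: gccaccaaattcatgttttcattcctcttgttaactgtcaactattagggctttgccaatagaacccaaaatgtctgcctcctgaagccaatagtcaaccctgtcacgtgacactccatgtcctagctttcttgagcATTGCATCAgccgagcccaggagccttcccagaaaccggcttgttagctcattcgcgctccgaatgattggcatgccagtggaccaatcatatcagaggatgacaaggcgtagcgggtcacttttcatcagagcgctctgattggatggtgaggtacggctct
Gstm2: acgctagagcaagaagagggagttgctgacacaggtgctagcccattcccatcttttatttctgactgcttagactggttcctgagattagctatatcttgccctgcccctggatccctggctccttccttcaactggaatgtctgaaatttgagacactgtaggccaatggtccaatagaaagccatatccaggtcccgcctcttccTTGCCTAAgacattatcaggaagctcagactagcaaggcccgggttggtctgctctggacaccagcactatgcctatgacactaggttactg
Mgst1: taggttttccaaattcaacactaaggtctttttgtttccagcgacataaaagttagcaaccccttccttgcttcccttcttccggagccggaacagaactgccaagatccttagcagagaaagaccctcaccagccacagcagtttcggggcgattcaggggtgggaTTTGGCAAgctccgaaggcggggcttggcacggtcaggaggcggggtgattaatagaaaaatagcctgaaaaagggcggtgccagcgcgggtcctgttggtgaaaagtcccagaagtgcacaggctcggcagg
TGCAAT was found in 3 of 52 promoters of genes that rose (5.77%) and TTGCNNAA in 3 (5.77%). Among the genes that fell TGCAAT was found in 2 of 29 (6.90%) and TTGCNNAA in 6 (20.7%), among 9389 tested genes in 5.12% and 7.76%, and among all 27025 promoters in the table in 8.52% and 10.8%. With the replicate block TGCAAT was found in 9 of 149 promoters of genes that rose (6.04%) and TTGCNNAA in 14 (9.40%). For genes that fell with the block, TGCAAT was found in 10 of 106 (9.43%) and TTGCNNAA in 9 (8.49%). TGATGCAA and ATTGCATCA were found in 0 of the 52, and in 1 (3.45%) and 0 of the 29. Their shares were 0.596% and 0.117% among the 9389 tested genes, and 0.929% and 0.207% among all promoters. With the block each was found in 1 of the 149 (0.671%), and they were found in 1 (0.943%) and 0 of the 106. For the genes that fell, promoters were matched for 29 of 40, and for all tested genes for 9389 of 11814 (79.5%), which is too few for a check over those sets, so that the shares are set side by side with no comparison. A match is a description of letters in this window only.

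Contractile and mitochondrial genes had few calls, as had all tested genes, at 0.863% without the block and 2.73% with it. Counts of 0 or 1 in lists of this size are near that background. Among 38 sarcomere and Z-disc genes 0 were called, or 1 with the block, the Z-disc protein Pdlim3 (-0.75 ± 0.20, adjusted p = 0.1001 and 0.0269). Myh6, the adult cardiac myosin, was -0.17 ± 0.14 and Atp2a2, the calcium pump SERCA2, -0.25 ± 0.15 (adjusted p = 0.772 and 0.670). Atp2a2 was lower in 5 of 5 pairs, with an adjusted p of 0.128 with the block and 0.0143 with the block on the 10 libraries alone. All 35 tested complex I genes lay between -0.13 and 0.17, and 41 genes of complexes II to V between -0.18 and 0.13, with 0 called in either fit. In the tricarboxylic acid cycle 3 of 30 genes were above 0, the median was -0.09 and 0 were called. Pdk4, another inhibitor of pyruvate dehydrogenase, was the highest of them at 1.05 ± 0.37, with a wide spread (395 to 1531 CPM in DDIT3, 236 to 838 in GFP, adjusted p = 0.276). Among 31 genes of glycolysis, glycogen and lactate only the block made calls: Hk2 and Gys1 lower and the lactate exporter Slc16a3 higher (block adjusted p = 0.0133, 0.0205 and 0.0335). The lists of heat shock proteins (28 tested), proteasome (39), cytosolic ribosomal (67) and mitochondrial ribosomal proteins (75), p53 targets (21) and circadian clock (19) had 0 calls in either fit, and medians between -0.02 and 0.11.

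Fetal and atrial genes changed in part. Nppa, or atrial natriuretic peptide, a marker of the atria and of stressed ventricle, read 1068, 1416, 468, 599 and 808 CPM in DDIT3 and 339, 469.8, 368, 110.2 and 161 in GFP. It was higher in 5 of 5 pairs and the groups overlapped at GFP replicate 2 and DDIT3 replicate 3 (1.59 ± 0.37, adjusted p = 0.0566 without the block and 0.0296 with it). Nppb and Myh7 were called in neither fit (0.64 ± 0.29 and 0.08 ± 0.78, adjusted p = 0.471 and 0.994). Stard10, a lipid transfer protein on the atrial list, rose from 12.7 to 14.6 CPM to 22.1 to 35.5 (0.96 ± 0.14, adjusted p = 0.00223). Of 12 atrial markers 1 rose, or 3 rose and 1 fell with the block, the third rise being Pam, which amidates peptides, and the fall Kcnj3. Of 27 fetal and stress-induced genes Uchl1 was the only rise, joined by Nppa with the block. The list of atrial markers summed to 716 to 1714 CPM in DDIT3 and 335 to 704 in GFP, mostly Nppa. Whether atrial cells had a part in these values was not tested.

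Matrix genes and markers of other heart cells were lower on average, with few calls, beside 0.863% of all tested genes (2.73% with the block). Of 37 collagens and matrix genes 35 had a negative log2 fold change, the median was -0.49, and 1 fell, Fbln1 (fibulin 1), at 40.9, 49.8, 44.8, 46.6 and 34.0 CPM against 66.9, 65.3, 88.1, 104 and 74.6 (-0.88 ± 0.14, adjusted p = 0.00275). The summed level of the 37 was 3420.5 to 3923.2 CPM in DDIT3 and 3950.8 to 5348.5 in GFP, without overlap. Of 12 tested fibroblast markers 0 were above 0, with a median of -0.50, 1 fell, again Fbln1, and Pdgfra joined it with the block (adjusted p = 0.256 and 0.0347). Their summed level was 324 to 620 CPM in DDIT3 and 400 to 889 in GFP, so that the groups overlapped. The defining genes Dcn and Col1a1 were -0.49 ± 0.31 and -0.63 ± 0.32, called in neither fit. Of 15 endothelial markers 1 was above 0, the median was -0.29 and 0 were called, with sums of 760 to 1243 CPM against 742 to 1454. Pericyte and smooth muscle markers (11 tested, median -0.15, sums 3723 to 4350 against 3817 to 4345) and leukocyte markers (6 tested, median -0.25, sums 15.8 to 24.5 against 18.3 to 27.6) had 0 calls. Ptprc and Cd3e were too low to test. The falls of Wif1, Slit2, Pi16, Smoc2 and Wisp1 stand beside these lists, and the part of such cells in them was not tested. Markers of Schwann cells and neurons summed to 41.5 to 55.7 CPM in DDIT3 and 31.9 to 46.7 in GFP. Of 17, 6 could be tested, and Cnp, a myelin enzyme, rose (0.99 ± 0.18, adjusted p = 0.00892); Mbp, Sox10, Snap25 and Elavl4 were too low to test. Immediate early genes, which respond to cell isolation, spread widely within groups: their sums were 1140 to 3675 CPM in DDIT3 and 1412 to 4998 in GFP, with a median of -0.36 and 0 of 24 called.

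Genes called only when libraries were compared within their number are listed by the same size rule. The largest such rises were Nek6, St6galnac2, Pygl, Erich1 and Ociad2, with block log2 fold changes of 1.06, 0.92, 0.80, 0.76 and 0.73 and adjusted p-values of 0.0470, 0.0110, 0.00620, 0.0338 and 0.0279. Pygl is the liver form of glycogen phosphorylase and Nek6 a mitotic kinase. The largest falls were Ccdc8, Plxdc2, Iigp1, Kcne1 and Sertad4 (-1.13, -1.09, -0.98, -0.96 and -0.95, adjusted p = 0.0293, 0.00633, 0.0240, 0.0321 and 0.0261). Iigp1, an interferon-induced GTPase, was 36.3 to 42.0 CPM in every DDIT3 library and spread from 49.2 to 146 in GFP, where replicates 1 and 2 were highest. The list of interferon-stimulated genes had a median of -0.23 over 24 tested, with 1 called, Ifi27l1, higher and with the block only. In the cell cycle list (26 tested, median -0.0016) Cenpf, a kinetochore protein, was lower with the block only (-0.59 ± 0.26, adjusted p = 0.468 and 0.00613). Of the 121 rises called only with the block, 120 were higher in 5 of 5 pairs, and of the 99 falls 96 were lower in 5 of 5. The block calls genes by their differences within numbers, so that these counts follow largely from the call. Which genes the block called also depended on the libraries in the fit. On the 10 DDIT3 and GFP libraries alone 4 named genes were added, namely Cntn2, Atp2a2, Gstm1 and Hspa5. On those libraries 8 lost their block call: Grk5 (adjusted p = 0.0528), Ddrgk1 (0.0582), Slc3a2 (0.0972), Mthfd2 (0.0976), Asns (0.101), Nppa (0.115), Iigp1 (0.118) and Sardh (0.0502).

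The calls were compared with the authors' deposited table of this comparison, which came from the same libraries. The authors' deposited table holds 241 genes at an adjusted p below 0.05, 126 higher and 115 lower. Calls of the authors' deposited table include 101 of the 102 genes called here (99.0%), all in the same direction, which is 41.9% of its calls. DESeq2 on the 15 libraries called 224, including all 102. The number of calls depended on single libraries: it was 55, 62 and 65 without DDIT3 replicate 1, 2 or 3, and 65, 63 and 61 without GFP replicate 1, 3 or 4. With the male libraries alone 74 genes were called, of which 50 were among the 102, and with sex as a covariate 96, of which 84. Without GFP replicate 5, the library labelled SMART-Seq3, 79 were called, 63 of them among the 102.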

How the data were processed

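Groups and replicate numbers were taken from the sample titles. The reads were processed with STAR, featureCounts, DESeq and DESeq2 on build mm10, per the submitters' processing notes, whose versions and strand setting the sources used here do not give. The authors deposited a table of whole-number read counts per gene, from which every result was computed unless credited otherwise, with a gene length column (other unit, bases, as deposited) used for the medians of length. Per the file headers, the authors' deposited table of this comparison holds log2 fold changes and standard errors, p-values before and after adjustment, a Wald score and the mean signal (normalised count) of each gene, and was used only where it is named.

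Counts were tested with edgeR 4.0.16 (R 4.3.3; filterByExpr, TMM factors, robust glmQLFit) in 1 fit of 15 libraries on group alone (12 residual degrees of freedom, biological coefficient of variation 19.6%), adjusted by Benjamini-Hochberg over 11814 genes at a threshold of 0.05. CPM use TMM factors. Errors of log2 fold changes are standard errors. The filter removed 11523 genes. No 2 libraries of a group were copies (chi-square per degree of freedom 10.7 to 31.3). Simulated counts, with the same spread for every gene and no effect of replicate number, were used to test the fits. They do not test the block on paired libraries.

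Same-numbered DDIT3 and GFP libraries deviated together in all 5 pairs, and each library correlated best with its own number, so that the numbers were taken to pair the samples. What a number stands for is not in the labels. In replicates 2, 4 and 5 the DDIT3 and GFP libraries of the same number were of opposite sex. No fit held both the block and sex, so that the part of sex in the block calls was not tested. The fit with the replicate number as a block has 8 residual degrees of freedom and a coefficient of variation of 14.1%.

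The alternatives were DESeq2 1.42.0, the replicate block, other scalings, no filter on low counts, sex, the 10 libraries alone and leaving out each library; leaving out DDIT3 replicate 2 and ATF4 replicate 2 together and the variants of the block were added after seeing the data. Genes named are 29 cardiac and stress genes, the 15 largest rises and falls called that reached 5 CPM in their higher group without overlap, the 5 largest of each called only with the block, and up to 3 of lowest p in each list; any other is said to be, or is here stated to be, chosen after its value was seen (Scn4a, Clcn1, Gja1, Cacna1g, Cntn2, Kcnj3, Shmt2, Dcn and the genes next to Ddit3). Some genes are not reported here. The members, lists and tests were chosen with earlier results of these data known. The kit does not mark strand, and Syt3, Cp, Cnp, Cacnb1, Aars, Grk5, Gys1, Slc16a3, Ric3, Ifi27l1, Clcn1, Ppp1r15a, Hspa5, Bcl2l11, Myh6, Shmt2, Ddit3, Mars and Mbd6 overlap another protein-coding gene, so that their reads cannot be wholly told from its reads.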

Additional observations from a re-analysis of the deposited data

Results flagged for a closer look

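In 16 of 222 sets of 5 values examined (7.21%), for the genes named above in each group, 1 library lay apart from the other 4 by more than Dixon's critical value of 0.71, where chance flags about 1 in 20. None of them is explained here. Among the genes that rose, Adap1 was 7.12 CPM in DDIT3 replicate 3, Pdzd3 21.6 CPM in DDIT3 replicate 4, Padi2 4.55 CPM in DDIT3 replicate 4, and Kif1a 7.02 CPM in DDIT3 replicate 1, each above its group. Lhfpl4 was 0.395 CPM in GFP replicate 4 and 0 in the other GFP libraries. St6galnac2, called with the replicate block only, was 12.5 CPM in DDIT3 replicate 2.

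Among the genes that fell, Mgst1 was 11.3 CPM in GFP replicate 1, below the 21.6 to 22.1 CPM of the other GFP libraries. Pknox2 was 30.0 CPM in GFP replicate 3, and Wif1 was 2.29 CPM in DDIT3 replicate 5. DDIT3 replicate 5 also stood apart for Plxdc2 (2.83 CPM, low) and Hk2 (289 CPM, high). Cntn2 was 3.38 CPM in DDIT3 replicate 3. Within GFP, Ddit3 was 13.4 CPM and Mbd6 2.84 CPM in replicate 5, both low, Chac1 was 10.3 CPM in replicate 1 and Gstm1 182 CPM in replicate 2, both high.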

How the results depend on the processing

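No named gene called in any fit changed direction under the 25 alternatives. Of the genes named, 13 that no fit called lay on both sides of 0 (log2 fold changes -0.93 to 0.40), among them Atf4, Trib3, Ppp1r15a, Bcl2l11 and Myh7. The log2 fold change of Ddit3 stayed within 5.65 to 5.83 when single libraries were left out. Of the 102 genes called, 62 higher and 40 lower, the replicate block gave 322 (183 and 139) on 15 libraries and 469 (206 and 263) on the 10 DDIT3 and GFP libraries alone, and DESeq2 gave 224 (129 and 95). Male libraries alone gave 39 higher, and 52 calls were at least 2-fold. Leaving out 1 library at a time gave 55 to 146 calls, 35 to 89 higher and 19 to 57 lower. With the pairing by replicate number as a block, leaving out 1 number gave 78 (without replicate 1) to 408 calls (without replicate 2). Of 48 named calls, 32 were kept under all 25 alternatives, and 13 were lost without some single library. Of 62 named genes not called, 40 were called under some alternative. The block on 15 libraries changed no call of a gene described above other than those printed, and on 10 libraries it added 4 of them and lost 8. The median log2 fold change of all genes moved by less than 0.1 under the other scalings. Depth limits the genes under 1 CPM, where a few counts set the fold change, and the exact binomial intervals of count ratios cover counting error only.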
